A study of Mus musculus with 3 samples.

Results

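Pfkfb3, Ldhb and Slc16a1 encode proteins of glycolysis and lactate handling, and they are 3 of the 6795 genes measured on 3 spotted 2-colour arrays of mouse thymocyte RNA. They were picked by symbol, after earlier results of the same comparison had shown Pfkfb3 above 0 and Ldhb and Slc16a1 below it. Purified CD69hi thymocytes of wild-type B6 mice gave the first RNA on each array, and whole, unsorted thymocytes of Zap70-/- mice gave the second. Zap70-/- mice lack a kinase that the T cell receptor (TCR) needs for signalling. CD69 is a surface protein raised after a TCR signal during positive selection, so the arrays set cells selected for a mark of that signal against cells without the kinase. The CD69hi RNA was labelled with Cy3 on arrays 1 and 2 and with Cy5 on array 3. The titles call the second RNA CD69lo, although its cells were not sorted. The 2 RNAs therefore differ in genotype and in purification as well as in CD69, and these cannot be told apart. The sources used here do not give age or pooling of the mice, or whether the arrays came from separate animals, so every SD is a spread between arrays that may be technical.

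In glycolysis, glucose is broken down to pyruvate, and phosphofructokinase is its main point of control. The bifunctional enzymes of the Pfkfb family make and degrade the sugar bisphosphate that activates phosphofructokinase, and Pfkfb3 is the family member with the strongest bias towards making it. Lactate dehydrogenase is a tetramer of A and B subunits that interconverts pyruvate and lactate, and tetramers rich in the B subunit, encoded by Ldhb, are associated with the use of lactate rather than its production. Slc16a1 encodes MCT1, which carries lactate and pyruvate with a proton across the plasma membrane and needs the chaperone basigin (Bsg) to reach it. Dividing and activated T cells are known for high glycolytic flux and lactate export.

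All values are log ratios, read as log2 and turned to CD69hi over Zap70-/-, so that a positive value means more transcript in the CD69hi RNA. The base of the logarithm is unstated in the sources used here, and fold values assume base 2. Before turning, array 3 correlated negatively across all features with array 1 (Pearson r = -0.25) and array 2 (r = -0.41), and arrays 1 and 2 correlated positively (r = 0.62). Features are not independent replicates, and these values only describe the arrays. The direction is likely rather than stated. It rests on the recombinase gene Rag1 of immature thymocytes (-1.19 ± 0.36, SD, n = 3) lying below 0 and on the TCR-induced genes Cd5 (4.75 ± 0.43) and Nr4a1 (3.78 ± 0.06) lying above it, and with the opposite reading every sign below would turn. Zap70 and Cd69 were not analysed here, so neither gene served as a check of the labels. Of 8905 features, 618 (6.94%) passed at a limma adjusted p of at most 0.05, 368 of them higher (4.13%) and 250 lower (2.81%) in CD69hi RNA. This split depended on the arrays. The calls were 169 higher and 32 lower when array 1 was left out, 95 higher and 24 lower for array 2, and 283 higher and 409 lower for array 3. With all arrays, 1069 of the 8905 features were higher and 1014 lower at a limma raw p up to 0.05. The raw p counts of each list below are to be read beside these.

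Promoter sequences of the members are shown because Ldhb and Slc16a1 lay below 0 together while Pfkfb3 lay above it, and because the factors known to drive glycolytic genes, Myc and HIF-1, bind short defined motifs. Each sequence holds the 250 bases before an annotated start in RefSeq (GRCm38.p6), read 5′ to 3′ on the gene's strand. Capitals mark the E-box CACGTG, bound by Myc with Max, and ACGTG, a form of the core of the hypoxia response element, on either strand. The form GCGTG was not searched or marked, and hypoxia element core here means ACGTG alone. Every E-box contains that core on both strands, so the 2 motifs overlap. Slc16a1 lies on the plus strand (chr3:104638414-104638663) and Ldhb on the minus strand (chr6:142507958-142508207). Pfkfb3 has 2 starts in this table, both on the minus strand, given as start A (chr2:11553930-11554179) and start B (chr2:11502091-11502340). The first start of Ldha, the gene of the other main subunit, is on the plus strand (chr7:46845554-46845803).
Slc16a1: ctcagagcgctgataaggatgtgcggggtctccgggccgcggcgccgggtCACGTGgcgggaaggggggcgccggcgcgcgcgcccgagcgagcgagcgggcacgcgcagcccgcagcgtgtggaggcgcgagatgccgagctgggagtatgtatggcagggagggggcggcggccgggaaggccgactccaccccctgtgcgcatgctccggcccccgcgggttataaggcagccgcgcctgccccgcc
Ldhb: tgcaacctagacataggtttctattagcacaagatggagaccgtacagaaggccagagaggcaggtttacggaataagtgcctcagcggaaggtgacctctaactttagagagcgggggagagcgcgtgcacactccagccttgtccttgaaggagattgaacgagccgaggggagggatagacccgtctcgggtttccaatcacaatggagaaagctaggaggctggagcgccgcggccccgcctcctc
Pfkfb3 start A: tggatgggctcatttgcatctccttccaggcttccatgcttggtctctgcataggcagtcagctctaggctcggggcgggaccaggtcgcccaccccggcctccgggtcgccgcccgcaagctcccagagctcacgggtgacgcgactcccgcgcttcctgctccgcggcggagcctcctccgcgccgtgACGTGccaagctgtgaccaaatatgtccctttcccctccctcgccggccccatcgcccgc
Pfkfb3 start B: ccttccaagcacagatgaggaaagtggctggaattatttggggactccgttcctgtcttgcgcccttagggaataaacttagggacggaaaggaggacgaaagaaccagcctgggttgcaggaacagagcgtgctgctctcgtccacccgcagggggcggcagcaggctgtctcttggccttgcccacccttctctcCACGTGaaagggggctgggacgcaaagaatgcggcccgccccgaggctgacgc
Ldha: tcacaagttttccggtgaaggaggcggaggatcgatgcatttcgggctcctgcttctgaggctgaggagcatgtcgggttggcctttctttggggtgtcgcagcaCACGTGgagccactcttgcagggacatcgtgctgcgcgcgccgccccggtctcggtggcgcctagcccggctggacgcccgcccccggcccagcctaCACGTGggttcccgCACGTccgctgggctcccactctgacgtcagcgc

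The Slc16a1 window held 1 E-box, whose first base lies 200 bases before the start. The Ldhb window held 0 matches to either motif, and the printed Ldha window held 2 E-boxes and 1 further hypoxia element core. The window of a second Ldha start (chr7:46846832-46847081) and that of Pfkfb4 (chr9:108991652-108991901), not printed, held 0 matches each. Of the Pfkfb3 windows, start B held 1 E-box, 53 bases before the start, and start A held 1 hypoxia element core outside an E-box. Across all 32851 promoter windows of this length 6.02% held an E-box and 16.6% the hypoxia element core, and in the 6904 windows of measured genes these shares were 8.18% and 20.4%. The shares of the core include cores inside an E-box. An E-box was found in the window of Slc16a1, which lay below 0, and in that of start B of Pfkfb3, which lay above it. Start A of Pfkfb3 had none, and which start these cells use was not measured. These matches are letters in a window, and binding was not measured.

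Pfkfb3 had log2 ratios of 1.12 on array 1, 0.70 on array 2 and 0.73 on array 3. Arrays 2 and 3, which carried the dyes in opposite orientation, were close to each other, and array 1 was highest. The mean was 0.85 ± 0.23 (SD, n = 3), or 1.80-fold higher in CD69hi RNA. Among 8905 features Pfkfb3 ranked 408th from the top by its mean, and it ranked 256th, 732nd and 1025th on the 3 arrays. It was therefore a moderate value on each array, with many features above it.

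Ldhb had log2 ratios of -1.23, -1.04 and -0.65 on arrays 1, 2 and 3. All lay below 0, and array 3 was nearest to it. The mean was -0.98 ± 0.30 (SD, n = 3), or 1.97-fold lower in CD69hi RNA. Its rank from the bottom was 281st by the mean, and 244th, 375th and 1036th on the arrays, so its position in the table depended on the array.

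Slc16a1 had log2 ratios of -2.02, -1.85 and -1.38 on arrays 1, 2 and 3, and was the furthest from 0 of the 3 genes on every array. The mean was -1.75 ± 0.33 (SD, n = 3), or 3.37-fold lower in CD69hi RNA. It ranked 57th from the bottom by its mean and 85th, 116th and 150th on the arrays, the most even ranks of the 3 genes. Each of the 3 genes had 1 probe with a single symbol, so no second probe could be compared. Because the 3 genes were chosen for these ratios, the values are a description and are given without a test. Among the genes of glycolysis and lactate handling listed for this comparison, the values nearest to the threshold from outside were those of Aldoa (0.73 ± 0.26, limma adjusted p = 0.067) and Eno3 (2.77 ± 1.74, adjusted p = 0.087). RNA of a mixed population was measured, so fewer cells of a type and less RNA per cell cannot be told apart.

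**Figure D1:**
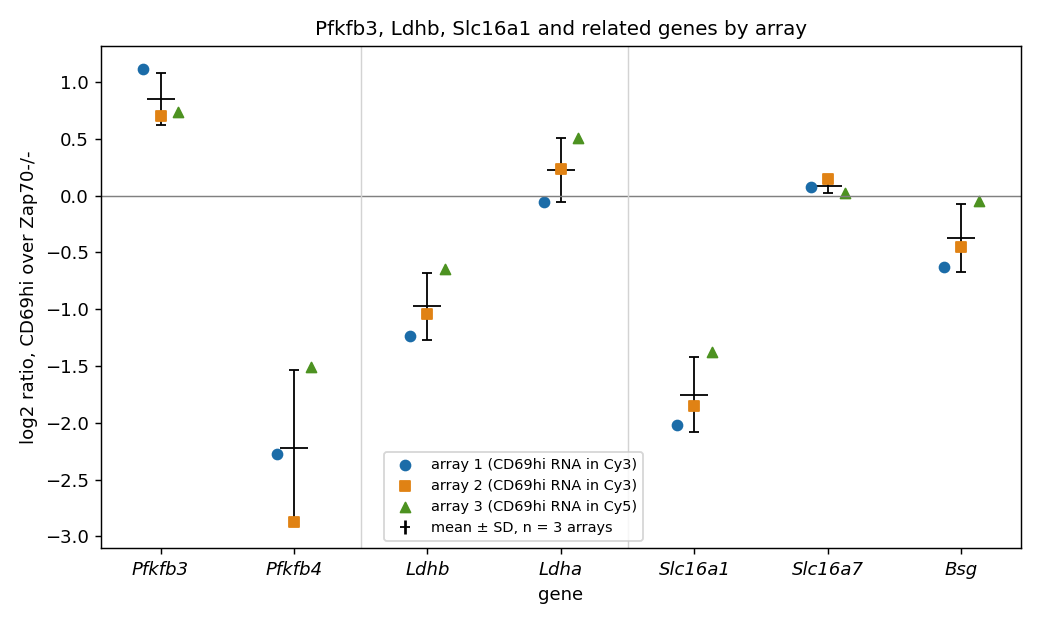
Log2 ratio of CD69hi over Zap70-/- RNA (vertical axis) for Pfkfb3, Ldhb and Slc16a1 and 4 related genes (horizontal axis). Points are arrays, with shape and colour giving array and dye, and bars are the mean ± SD of 3 arrays. Pfkfb3 (mean 0.85) and Pfkfb4 (-2.22) lie on opposite sides of 0, and Ldhb and Slc16a1 lie below their relatives Ldha, Slc16a7 and Bsg on every array.

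Array 3 gave the value nearest to 0 for Ldhb and Slc16a1, and array 2 for Pfkfb3. Of the 250 features called lower, 182 (72.8%) had array 3 nearest to 0, as Ldhb and Slc16a1 did. Of the 368 called higher, 251 had array 1 nearest, 87 (23.6%) array 3 and 30 array 2. Pfkfb3 lay at 0.70 on array 2 and 0.73 on array 3, too close together to place it in either of these groups. A dye term was fitted, an offset of the unturned ratio that all arrays share. It enters the turned ratios of the 2 dye orientations with opposite sign. Array 3 minus the mean of arrays 1 and 2 is therefore 2 times the term. Only array 3 had the CD69hi RNA in Cy5, so a dye effect cannot be told apart from any other difference of array 3. The term itself was -0.09 for Pfkfb3 (limma adjusted p = 0.68, 95% interval -0.49 to 0.31), 0.24 for Ldhb (adjusted p = 0.23, interval -0.04 to 0.53) and 0.28 for Slc16a1 (adjusted p = 0.21, interval -0.0009 to 0.56). None of the 3 passed, and over all 8905 features 0 (0%) passed, with 2161 with a raw p up to 0.05. This fit leaves 1 residual degree of freedom. With each dye orientation given equal weight the means became 0.82 for Pfkfb3, -0.89 for Ldhb and -1.66 for Slc16a1, each within 1 SD of the mean over the arrays.

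**Figure D2:**
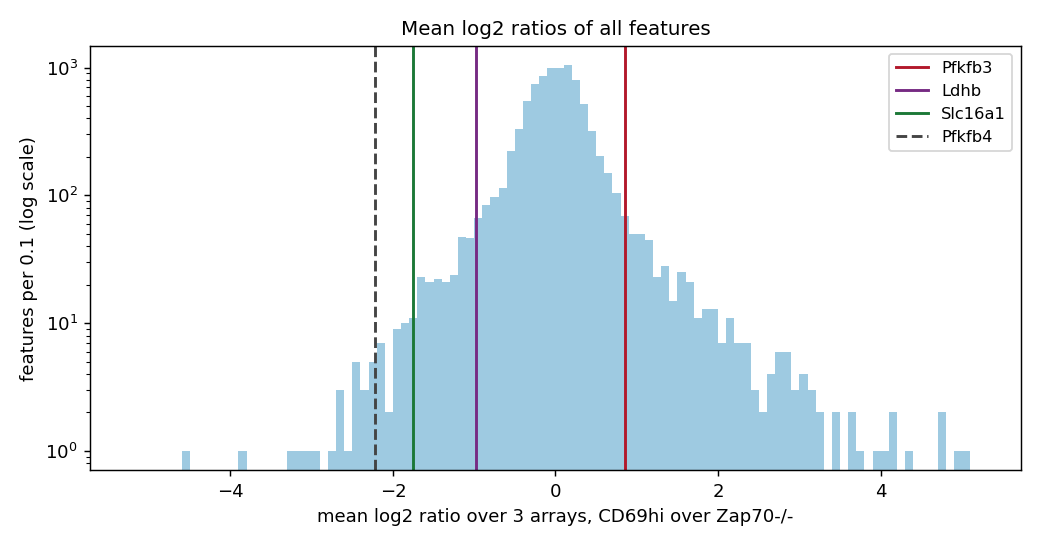
Number of features (vertical axis, log scale) in bins of 0.1 of the mean log2 ratio over 3 arrays (horizontal axis, CD69hi over Zap70-/-) for all 8905 features. Lines mark Pfkfb3 at 0.85, Ldhb at -0.98, Slc16a1 at -1.75 and Pfkfb4 at -2.22. Slc16a1 stands far out in the lower tail, with 56 features below it.

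Pfkfb4, the other Pfkfb gene measured and also a bifunctional enzyme, had log2 ratios of -2.27, -2.88 and -1.51 on arrays 1, 2 and 3. All 3 lay below 0 and below those of Slc16a1. Pfkfb4 fell by 2.22 ± 0.68 on the log2 scale (SD, n = 3, limma adjusted p = 0.025), a 4.66-fold lower level in CD69hi RNA. It did not pass without array 1 (adjusted p = 0.070). Over the 7 alternatives that turned array 3 its adjusted p ran from 0.023 to 0.070. The within-array difference of Pfkfb3 minus Pfkfb4 was 3.39, 3.58 and 2.25, with a mean of 3.07 ± 0.72, so their ratios differed in the same direction on all 3 arrays. Of the other genes at this step, the phosphofructokinase gene Pfkl had a mean of -0.20 ± 0.15 (adjusted p = 0.45) and the fructose bisphosphatase gene Fbp2 one of 0.00 ± 0.33 (adjusted p = 0.99).

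The lactate dehydrogenase genes did not share the ratio of Ldhb. Ldha, which encodes the A subunit, had log2 ratios of -0.06, 0.23 and 0.51 on arrays 1, 2 and 3, a mean of 0.23 ± 0.28 (SD, n = 3) that did not pass (limma adjusted p = 0.46, 95% interval -0.20 to 0.65). Its arrays lay on both sides of 0. Ldhb minus Ldha was -1.18, -1.28 and -1.16 within the arrays, a mean of -1.20 ± 0.06, so the B to A transcript ratio was 2.30-fold lower in CD69hi RNA. That difference spread less than either gene alone (SD 0.30 for Ldhb). The testis isoform gene Ldhc (-0.03 ± 0.06) and the D-lactate dehydrogenase gene Ldhd (-0.19 ± 0.16) did not pass either. Spotted cDNA probes can bind transcripts of related genes, which was not tested.

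Of the other monocarboxylate transporter genes, Slc16a7, which encodes MCT2, was measured, at 0.08, 0.14 and 0.02 on arrays 1, 2 and 3 (mean 0.08 ± 0.06, SD, n = 3, limma adjusted p = 0.74, 95% interval -0.24 to 0.41). The chaperone gene Bsg had ratios of -0.63, -0.45 and -0.05 (mean -0.37 ± 0.30, adjusted p = 0.26). Both lay nearer to 0 than Slc16a1 on every array. Slc16a1 minus Bsg was -1.39, -1.41 and -1.33 within the arrays, a mean of -1.38 ± 0.04. That difference, like Ldhb minus Ldha, varied less between arrays than the ratio of either gene. Slc16a1 minus Slc16a7 had a mean of -1.83 ± 0.38, which varied more than either gene, as Pfkfb3 minus Pfkfb4 also did. These pairs, among 5 computed, were chosen after the values were seen, and their differences are descriptions without a test.

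The 4 lists for glucose uptake, the phosphofructokinase step, the other glycolytic enzymes and lactate held 70 genes, of which 27 were measured. Leaving out the 3 chosen genes, 1 of 24 passed, lower in CD69hi RNA (Pfkfb4), and 0 passed higher (limma, 5 higher and 2 lower with a raw p up to 0.05). Over all features the shares passing were 2.81% lower and 4.13% higher, and 1069 of 8905 were higher and 1014 lower with a limma raw p up to 0.05. The median of these 24 genes was -0.01, against 0.01 for all features, and their means ran from -2.22 (Pfkfb4) to 2.77 (Eno3).

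Among glucose transporters, Slc2a1, the main glucose transporter of activated T cells, had ratios of 0.40, 0.27 and 0.27 on arrays 1, 2 and 3 (mean 0.31 ± 0.07, SD, n = 3, limma adjusted p = 0.23), all above 0. Slc2a8 had a mean of 0.37 ± 0.15 (adjusted p = 0.20). Slc2a4, Slc2a5 and Slc2a10 had means between -0.04 and 0.03, and the hexokinase gene Hk1 one of -0.26 ± 0.49. Slc2a2, the transporter of liver and pancreatic islets, had ratios of 3.47, -4.81 and 2.80, with array 2 on the other side of 0 and far larger sizes than the other genes of this list. It passed when array 2 was left out (3.14, adjusted p = 0.010) and had an adjusted p of 0.89 with all arrays.

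Of the 9 other glycolytic enzymes 0 passed (limma, 4 higher and 1 lower with a raw p up to 0.05), and their median was 0.21. Of all 8905 features 6.94% passed, and 1069 were higher and 1014 lower with a limma raw p up to 0.05. The aldolase gene Aldoa had ratios of 0.50, 0.69 and 1.00 and the pyruvate kinase gene Pkm 0.36, 0.29 and 0.81 on arrays 1, 2 and 3. Both lay above 0 on every array, and with a dye term both passed (adjusted p = 0.039 for Aldoa and 0.048 for Pkm). Over the 7 alternatives that turned array 3 their adjusted p reached 0.35 and 0.50. The triosephosphate isomerase gene Tpi1 lay below 0 on every array (mean -0.75 ± 0.39, adjusted p = 0.098) and passed without array 3 (adjusted p = 0.046, and up to 0.51 over the same alternatives). The muscle enolase gene Eno3 had ratios of 4.77, 1.67 and 1.86 and passed without array 1 (mean 1.76, adjusted p = 0.036, and up to 0.12 over those alternatives). Eno2 (0.48 ± 0.36), Pklr (0.21 ± 0.13), Pgk1 (-0.08 ± 0.33), Pgam2 (-0.09 ± 0.09) and Bpgm (-0.34 ± 0.11) did not pass.

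**Figure D3:**
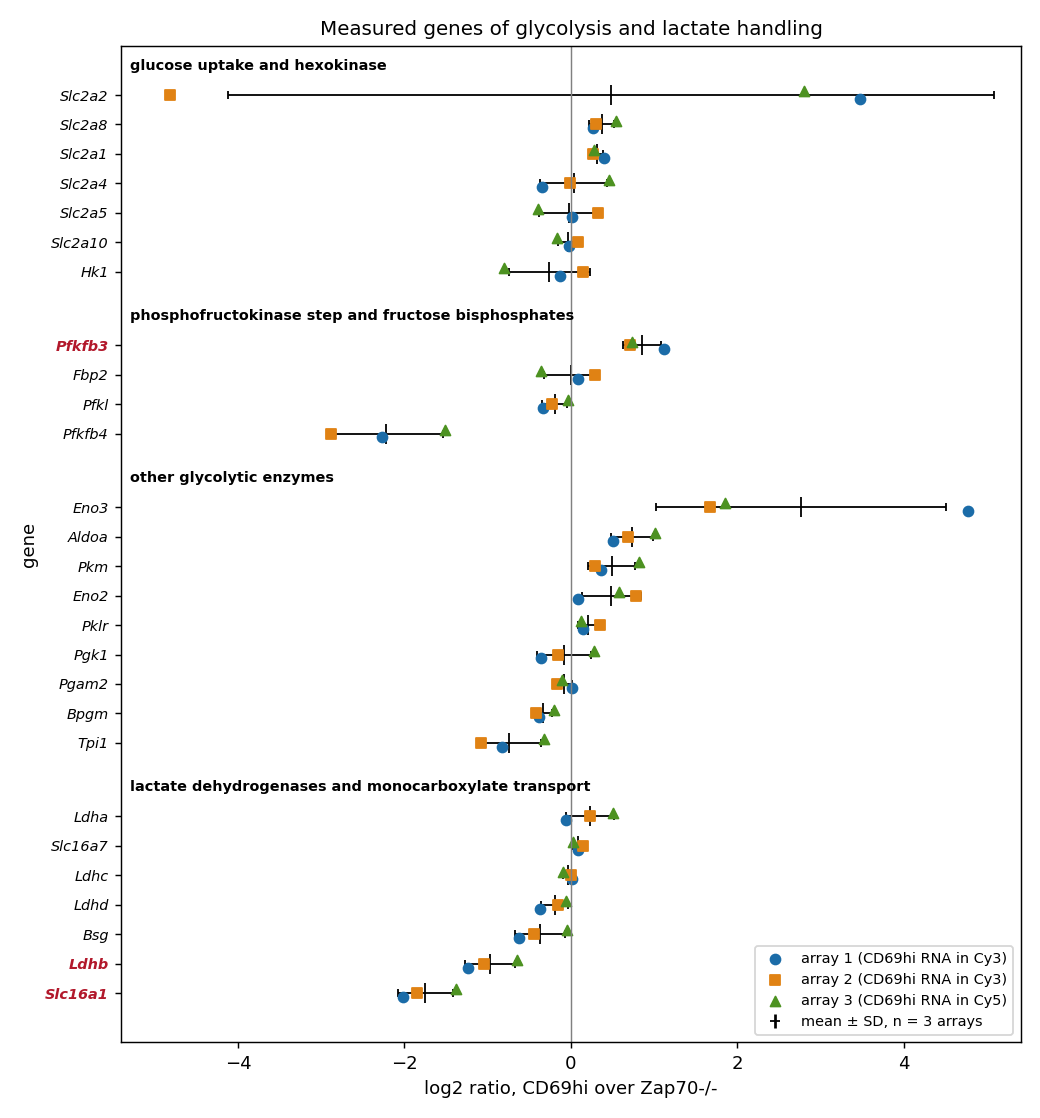
Log2 ratio of CD69hi over Zap70-/- RNA (horizontal axis) for the 27 measured genes of the 4 lists (down the page, ordered by mean within each list). Points are arrays and bars the mean ± SD of 3 arrays, with the 3 chosen genes named in red. Pfkfb4 and Slc16a1 are lowest, and Slc2a2 and Eno3 spread most between arrays.

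At the entry of pyruvate into mitochondria, the list of 12 measured genes held 1 riser, 1 faller and 10 without a call (median 0.01), against 4.13% of all features called higher and 2.81% lower. Pyruvate dehydrogenase kinases switch off the enzyme complex that commits pyruvate to oxidation, and 2 of their genes moved in opposite directions. Pdk4 had ratios of 0.82, 1.10 and 1.09 on arrays 1, 2 and 3 and rose (1.00 ± 0.16, SD, n = 3, limma adjusted p = 0.029). Pdk2 had ratios of -0.84, -0.92 and -0.75 and fell (-0.84 ± 0.09, adjusted p = 0.034). Each gene had 1 sign on all arrays. Neither passed without array 1 (adjusted p = 0.091 for Pdk4 and 0.16 for Pdk2) or without array 2 (0.20 for Pdk4 and 0.28 for Pdk2, each the highest over the 7 alternatives that turned array 3).

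Of 15 citrate cycle and shuttle genes 1 rose and 0 fell (limma, 2 higher and 5 lower with a raw p up to 0.05), with a median of -0.26. The riser was Got1, the cytosolic aminotransferase of the malate-aspartate shuttle (0.93 ± 0.14, SD, n = 3, adjusted p = 0.031), which did not pass without array 1 (0.12) or array 2 (0.21, the highest of its 7 alternatives that turned array 3). Of 6 pentose phosphate genes 1 fell, Prps2, which makes phosphoribosyl pyrophosphate (log2 ratios of -0.91, -1.18 and -0.91, adjusted p = 0.029), and it did not pass without array 1 (0.11) or array 2 (0.21, its highest). Of 14 genes of glycogen and sugar phosphates 1 fell, the phosphomannomutase gene Pmm1 (-1.89 ± 0.57, adjusted p = 0.027), which did not pass without array 1 (0.078, its highest) or array 2 (0.070). In these 3 lists the counts of 1 compare with 6.94% of all features called in either direction. Of all 8905 features, 1069 were higher and 1014 lower with a limma raw p up to 0.05.

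Among 27 measured regulators of glycolytic genes and energy sensing, there were 1 riser, 2 fallers and 24 genes without a call (median -0.20), beside 6.94% of all features called in either direction. Irf4, a TCR-induced transcription factor, rose (1.84 ± 0.20, SD, n = 3, limma adjusted p = 0.010) and passed in all 7 alternatives that turned array 3 (adjusted p from 0.0090 to 0.035). Those that fell were Mxd3 (-2.13 ± 0.98, adjusted p = 0.048) and Mxi1 (-0.82 ± 0.06, adjusted p = 0.034), both Max partners that compete with Myc, and neither passed without array 1 (0.13 and 0.17) or array 2 (0.13 and 0.28). Mxd3 did not pass with scaled arrays either (0.060), and over the 7 alternatives that turned array 3 the highest adjusted p were 0.13 for Mxd3 and 0.28 for Mxi1. Myc itself had ratios of -0.76, -0.83 and -0.35 on arrays 1, 2 and 3 (adjusted p = 0.089), and Hif1a had -0.23, -0.09 and -0.28 (adjusted p = 0.41). Both lay below 0 on every array without passing, and Myc is named with Hif1a because of the promoter motifs, after its values were seen. Of 11 hypoxia response genes outside glycolysis 1 rose (all features 4.13%), Ndrg1 (1.15 ± 0.36, adjusted p = 0.037), and 0 fell (limma, 1 lower with a raw p up to 0.05). Ndrg1 did not pass without array 1 (0.072), array 2 (0.17, its highest) or array 3 (0.052).

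Transcripts of other cells and of dividing cells also differed between the RNAs. Of 20 macrophage and dendritic cell markers 13 rose and 0 fell in CD69hi RNA, with a median of 1.42 and a range of 0.00 to 2.51, where 4.13% of all features rose and 2.81% fell. Lyz2 (2.51 ± 0.08, SD, n = 3), Apoe (2.46 ± 0.14) and C1qa (2.23 ± 0.09) lay further above 0 than Pfkfb3, a gene that macrophages also express. Of 40 cell cycle genes 16 fell and 0 rose (limma, 0 higher and 35 lower with a raw p up to 0.05), where 2.81% of all features fell. Their median was -1.17, and furthest below 0 among those that fell were Ccnf (-2.27 ± 1.05), Bub1b (-2.14 ± 0.81), Aurkb (-1.95 ± 0.83) and Cdk1 (-1.87 ± 0.82). All 4 calls ended when array 1 was left out (limma adjusted p 0.095 to 0.13) or array 2 was (0.083 to 0.13), and those of Ccnf, Aurkb and Cdk1 also ended with scaled arrays (0.056 to 0.062). The medians of the list were -1.30, -1.49 and -0.84 on arrays 1, 2 and 3, nearest to 0 on array 3. The same held for Ldhb and Slc16a1 and for 72.8% of all features called lower. Of 9 granulocyte markers 1 fell (S100a8), beside the same 2.81% (limma, 0 higher and 7 lower with a raw p up to 0.05). Their median was -0.86, and their means ran from -1.98 to 0.38. Of 9 markers of erythroid cells, which also carry MCT1, 0 passed (limma, 1 higher with a raw p up to 0.05), with a median of 0.05 and a range of -0.60 to 0.53. Of 8 thymocyte markers 0 passed (limma, 1 lower with a raw p up to 0.05), with a median of -0.11. Of 7 B cell markers 0 passed (limma, 2 higher and 0 lower with a raw p up to 0.05), with a median of 0.03. Of 9 epithelial and stromal markers 0 passed (limma, 0 higher and 2 lower with a raw p up to 0.05), with a median of -0.06. The part of other cells or of cell division in the ratios of Pfkfb3, Ldhb and Slc16a1 was not tested.

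**Figure D4:**
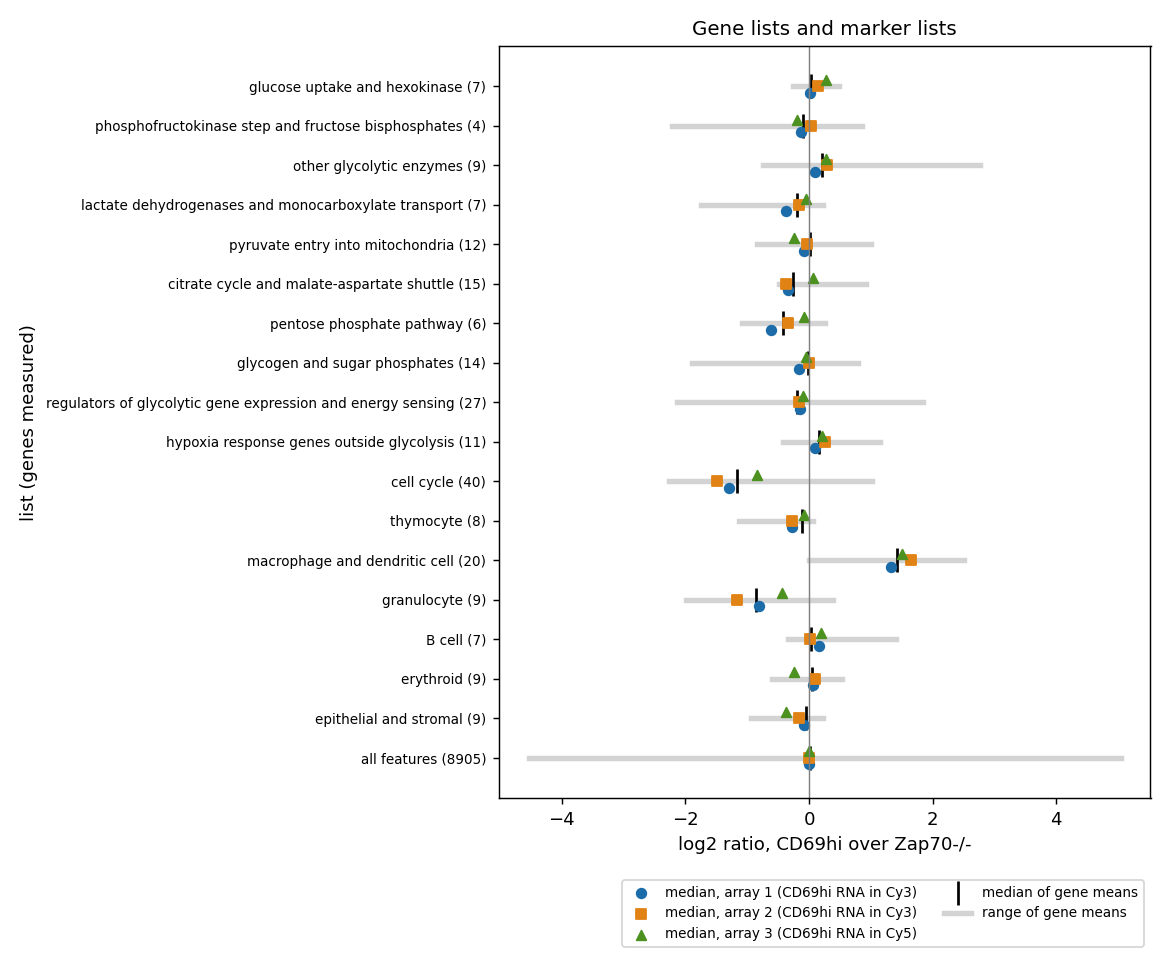
Median log2 ratio of CD69hi over Zap70-/- RNA (horizontal axis) of each gene or marker list (down the page, with the number of genes measured), by array (coloured points) and over gene means (black tick). Grey bars span the lowest to the highest gene mean. The cell cycle list (-1.17) and the macrophage and dendritic cell list (1.42) stand furthest from 0, and the 4 glycolysis and lactate lists lie between -0.19 and 0.21.

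The genes whose ratios were most like those of each member were found by Euclidean distance over the 3 arrays, on the log2 scale. Nearest to Pfkfb3 were Il3ra (distance 0.10), Kcnj9 (0.14) and Atp2b1 (0.15), and 9 genes lay within 0.3. Nearest to Ldhb were Ada (0.051), Sephs2 (0.057) and Hpcal1 (0.057), and 36 genes lay within 0.3. Nearest to Slc16a1 were Taf1c (0.21), Gtf2h4 (0.26) and Tec (0.29), and 4 genes lay within 0.3. Ldhb thus had the most genes of like ratios and Slc16a1 the fewest. With 3 arrays of a single comparison this likeness describes equal ratios.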

How the data were processed

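The authors deposited 1 log ratio per probe and array, taken here as log2, and per the labels the arrays were of 1 print. Their background correction, filtering, normalization and log base are unstated in the sources used here. The deposited log2 values had array medians from -0.005 to -0.002, 0 missing values, and sizes above 4 on 29 to 47 probes per array. No intensities were used, so dim spots were not left out. The number of arrays limits the precision.

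Of 9596 probes, 7486 had 1 symbol in the platform annotation, 483 several and 1627 none there. Entrez identifiers of 7395 matched the RefSeq table (GRCm38.p6), which changed 0 symbols. Single-symbol probes were averaged by gene and every other probe was kept alone, giving 8905 features. Values of arrays 1 and 2 were multiplied by -1, by labelled dye. All features went into 1 limma fit (version 3.58.1, R 4.3.3), with moderated variances, 2 residual and 2.75 prior degrees of freedom, two-sided, Benjamini-Hochberg adjusted over all features, threshold 0.05. The fit was also run on simulated ratios with independent errors of equal spread on all arrays, a simpler setting than these data. SDs are over 3 arrays.

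Members, gene lists and naming rule were chosen with earlier results of these data known. All measured genes of the 4 glycolysis and lactate lists were named. In the other gene lists up to 4 called genes with the largest ratios were named. Each member's 3 nearest genes, and Rag1, Cd5 and Nr4a1, were added, and Myc, Hif1a and some marker genes after their values were seen. Alternatives left out each array, scaled arrays to equal spread, added a dye term, took probe medians or single probes, used robust shrinkage, weighted dye orientations equally, or left array 3 unturned.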

Additional observations from a re-analysis of the deposited data

How the results depend on the processing

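The signs of the mean ratios of Pfkfb3, Ldhb and Slc16a1 were the same under every alternative run. Each gene had 1 probe and 1 sign on all arrays, so only leaving array 3 unturned could have changed a sign. Without 1 array the means ran from 0.72 to 0.92 for Pfkfb3, from -1.14 to -0.85 for Ldhb and from -1.94 to -1.62 for Slc16a1. With array 3 unturned they were 0.36, -0.54 and -0.83, as that setting subtracts array 3 by construction. The dye terms did not pass with robust shrinkage either.

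The number of the 27 measured glycolysis and lactate genes passing was 4, of which 3 had been chosen for it. It ran from 2 to 4 when 1 array was left out, and was 2 without array 1 (Eno3 and Slc16a1), 2 without array 2 (Slc2a2 and Pfkfb4), 4 without array 3 (Ldhb, Pfkfb4, Slc16a1 and Tpi1), 5 with a dye term (Aldoa, Pkm, Ldhb, Pfkfb4 and Slc16a1), 2 with scaled arrays (Pfkfb4 and Slc16a1) and 0 with array 3 unturned (limma, 0 with a raw p up to 0.05). Pfkfb3 was thus not among the calls without any 1 of the arrays, with scaled arrays or with a dye term. For the 3 chosen genes these calls only describe the settings and are not a test, as the genes were picked for these ratios. Over all features the 618 calls became 119 to 692 when 1 array was left out, with 201 without array 1, 119 without array 2 and 692 without array 3. They became 1076 with a dye term and 0 with array 3 unturned (limma, 342 with a raw p up to 0.05). Fits without an array have fewer residual degrees of freedom. Of the 296 other values, for single named genes, 44 lost their call, 5 gained one and 247 kept their side of the threshold. These include the fit with array 3 unturned, where 0 features passed, so every called gene lost its call there. They also include probe medians, which leave the ratio of a gene with 1 probe as it was. The cause of the lost and gained calls was not tested. Signal over background is unknown here, which limits what large single-array ratios such as those of Slc2a2 and Eno3 can show.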
